A study of Mus musculus with 9 samples.

Results

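The miR-15 and miR-16 family, with miR-195a and miR-497a, was described here by its 5 mature 5p miRNAs that are not X-linked, mmu-miR-15a-5p, mmu-miR-15b-5p, mmu-miR-16-5p, mmu-miR-195a-5p and mmu-miR-497a-5p, and by their sum. They were taken by name from a table that lists 1966 mature miRNAs, 909 of them with any count. Small RNA was sequenced from the quadriceps, a thigh muscle, of mice aged 90 days in 3 groups of 3 libraries, 1 group without functional MBNL1 (Mbnl1KO), 1 without functional MBNL2 (Mbnl2KO) and 1 wild-type group (WT). WT mice were C57BL/6J with Mbnl1+/+ and Mbnl2+/+, and Mbnl1KO mice were C57BL/6J with Mbnl1 ΔE3/ΔE3 and Mbnl2+/+. Mbnl2KO mice had both Mbnl1 copies, came from the strain B6.C-Tg(CMV-cre)1Cgn/J, in which the broadly active CMV promoter drives Cre, and were labelled Mbnl2 ΔE2/ΔE2 in replicate 1, ΔE2/ΔE3 in replicate 2 and ΔE2/ΔE4 in replicate 3. The strain therefore differed together with Mbnl2, so that their parts in a Mbnl2KO difference cannot be told apart. The study gives the WT mice as littermates and the Mbnl2 genotype as the single combination ΔE2/ΔE2. Labels and study differ here, so it is not settled that these mice differed in genotype. The table holds miRNAs and no mRNA, so the loss of MBNL1 or MBNL2 itself was not measured in these libraries.

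MBNL proteins are RNA-binding proteins best known as regulators of alternative splicing in muscle, and the comparison asks which mature miRNAs differ in level when 1 of them is lost. A mature miRNA guides the silencing complex to messenger RNAs that pair with its seed, the bases near its 5′ end, so miRNAs with a common seed can share targets. The miR-15/16 family is known for repressing cyclins and other drivers of the cell cycle, and its members in the heart are known for a part in the exit of muscle cells from the cell cycle after birth.

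The mature sequences are shown because the family is defined by them. All 5 members matched the RefSeq miRNA table (GRCm38.p6) by name. They are written 5′ to 3′ with the seed (bases 2 to 8) in capitals:
miR-15a-5p: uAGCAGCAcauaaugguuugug
miR-15b-5p: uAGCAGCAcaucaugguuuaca
miR-16-5p: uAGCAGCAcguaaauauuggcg
miR-195a-5p: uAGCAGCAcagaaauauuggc
miR-497a-5p: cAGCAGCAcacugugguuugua
miR-322-5p (X-linked relative): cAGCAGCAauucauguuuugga
miR-503-5p (X-linked relative): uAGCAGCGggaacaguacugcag

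The 5 members shared 1 seed and were identical over bases 2 to 9. In all, 10 positions were the same in the 5 members, and they differed at the others. Positions were counted from the 5′ end without gaps, over the length of the shorter miRNA. MiR-16-5p and miR-195a-5p were the closest pair, with 2 mismatches over 21 bases (G10A and U11G, miR-16-5p given first). MiR-15a-5p and miR-15b-5p had 4 mismatches over 22 bases (A12C, G20A, U21C and G22A, miR-15a-5p given first). MiR-16-5p and miR-497a-5p were the most distant pair, with 11 mismatches over 22 bases. Of the 1679 mature miRNAs in the RefSeq table, 10 had this seed. All 10 were in the count table and 6 of them had a count, the 5 members and miR-322-5p. MiR-195b, miR-6342, miR-6353 and miR-6419 were listed at 0 in all 9 libraries. MiR-503-5p, usually placed in the same family, differs at the last base of the seed (A8G against miR-15a-5p).

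The members come from 3 pairs of hairpins (positions from the GENCODE annotation of GRCm39). Mir15a (chr14:61869476-61869559, minus strand) and Mir16-1 (chr14:61869329-61869421, minus strand) lie 54 bases apart in the long non-coding RNA gene Dleu2, where each overlaps an annotated exon of at least 1 transcript. Mir15b (chr3:68917105-68917168, plus strand) and Mir16-2 (chr3:68917235-68917329, plus strand) lie 66 bases apart in an intron of Smc4, the gene of a condensin subunit. Mir497 (chr11:70125543-70125626, plus strand) and Mir195a (chr11:70125868-70125961, plus strand) lie 241 bases apart, outside any other annotated gene, with Bacc1 the nearest at 66 bases from Mir195a. The sequence of miR-16-5p was found in both Mir16-1 (chr14:61869385-61869406) and Mir16-2 (chr3:68917251-68917272). Its count can therefore hold reads from both loci and cannot be divided between the chromosome 14 and the chromosome 3 pair. Mir497b lies on the opposite strand over Mir497 (chr11:70125518-70125642), and miR-497b was listed at 0 throughout.

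The opposite arms of the same hairpins pair with the seed, and MBNL proteins are known to bind RNA at short motifs with GC between pyrimidines. The motif searched was a pyrimidine on each side of GC, which gives the forms UGCU or UGCC and, with C in the first place, CGCU or CGCC, on the RNA strand only, with overlapping matches counted separately. None of the 5 members contained one, while 5 of their 3p partners contained 2 overlapping matches each, printed here because they hold the motif, with its letters in capitals:
miR-15a-3p: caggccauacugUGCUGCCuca
miR-15b-3p: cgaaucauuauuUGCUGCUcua
miR-16-1-3p: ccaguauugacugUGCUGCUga
miR-16-2-3p: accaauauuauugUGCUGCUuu
miR-195a-3p: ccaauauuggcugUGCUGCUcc

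The sixth partner, miR-497a-3p, contained none. Of all 1679 RefSeq mature miRNAs, 25.25% held at least 1 match. These 3p arms pair with a shared seed, so their matches are not independent of each other. The 6 hairpins, taken from the GRCm39 sequence, held between 2 matches (Mir15a, Mir15b and Mir497) and 3 matches (Mir16-1, Mir16-2 and Mir195a). At least 1 match was found in 68.1% of the 1005 RefSeq hairpins and in 65.9% of the 580 RefSeq hairpins within the length range of the 6, and the median hairpin held 1. A match describes the letters only and is not a binding site.

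The authors deposited raw counts, with totals between 4761271 and 6277018 per library. The muscle miRNA miR-1a-3p took between 61.4% and 73.7% of the counts, and the summed level of the skeletal muscle markers was high in every library. A normalized count is a count after scaling by edgeR's trimmed mean of M values (TMM), and the TMM factors, which relate the library total to the effective one, lay between 0.826 (Mbnl2KO replicate 3) and 1.31 (Mbnl1KO replicate 1). Several miRNAs that muscle, vessels and blood are known to express (miR-24-3p, miR-126a-3p, miR-126a-5p, miR-142a-3p and miR-486a-5p) were listed at 0 in all 9 libraries. An entry at 0 in this table is therefore reported only as listed at 0.

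MiR-16-5p made up most of the family. Its normalized counts were 10624, 10268 and 9483 in WT, 9182, 11427 and 11425 in Mbnl1KO, and 10273, 9913 and 10343 in Mbnl2KO. It was the 25th most abundant mature miRNA by mean normalized count and accounted for between 79.9% and 84.8% of the family's counts in each library. The lowest and the highest of the 9 values were both in Mbnl1KO, so that the groups overlapped.

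MiR-195a-5p, the 73rd, followed with 1007, 1059 and 922 in WT, 1210, 1296 and 1289 in Mbnl1KO, and 1128, 1098 and 1087 in Mbnl2KO. The 3 groups did not overlap, with WT lowest, Mbnl2KO between and Mbnl1KO highest. How large a share of all miRNAs separates the 3 groups in this way was not computed. MiR-497a-5p, its neighbour on chromosome 11 and the 113th, had 309, 283 and 261 in WT, 400, 351 and 341 in Mbnl1KO, and 278, 311 and 313 in Mbnl2KO. Every Mbnl1KO value lay above every other value, and the WT and Mbnl2KO values were interspersed.

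MiR-15b-5p, the 100th, had 394, 378 and 376 in WT, 441, 391 and 379 in Mbnl1KO, and 457, 497.1 and 447 in Mbnl2KO. The 3 Mbnl2KO values were the highest, and the Mbnl1KO and WT values overlapped. MiR-15a-5p, the 120th, had 200, 217 and 309 in WT, 265, 372 and 267 in Mbnl1KO, and 256, 213 and 217 in Mbnl2KO. WT replicate 3 had the highest WT value and the highest value outside Mbnl1KO, and it was the library on which the overlap of WT and Mbnl1KO rested.

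**Figure D1:**
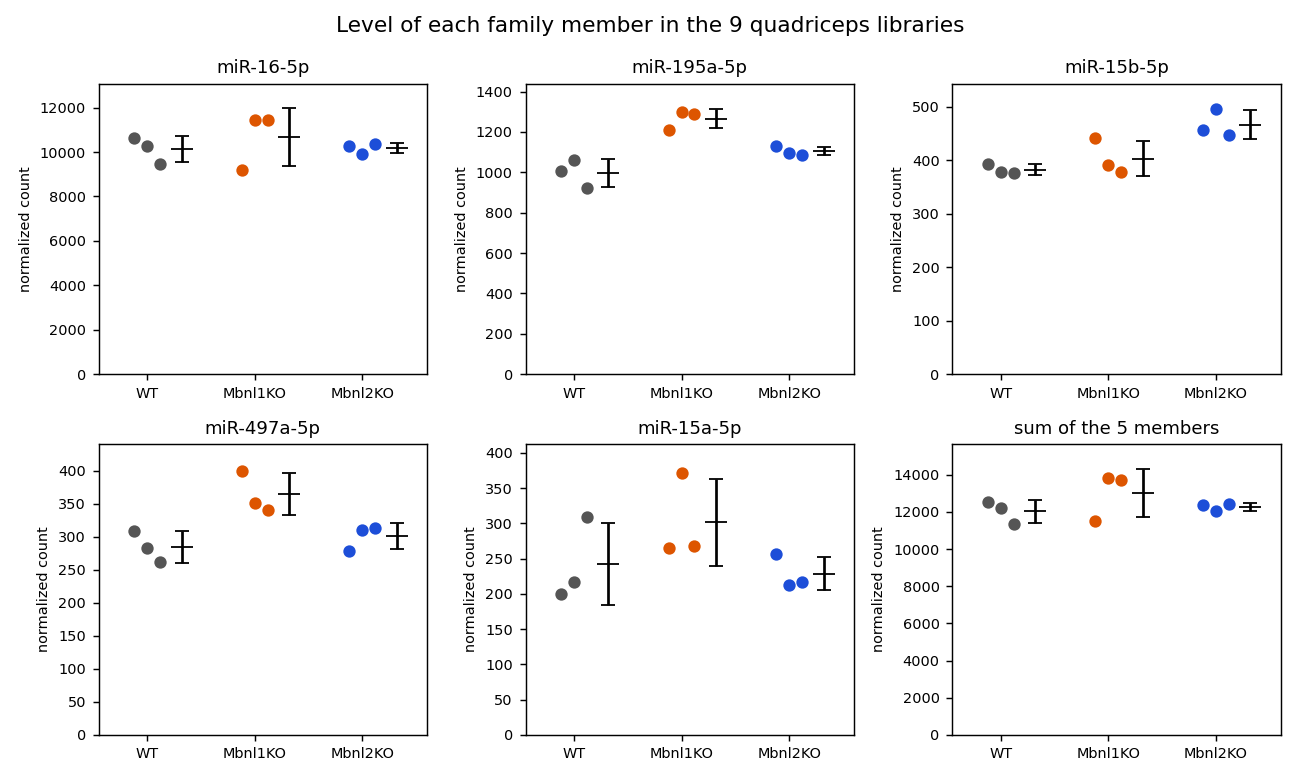
Normalized counts (vertical axes, linear and starting at 0, with a range of their own in each panel) of the 5 members and of their sum in 3 WT, 3 Mbnl1KO and 3 Mbnl2KO libraries. Points are libraries in the order of their replicate number, and the bar beside them is the mean ± SD (n = 3); the 3 Mbnl1KO points of miR-195a-5p and of miR-497a-5p lie above all other points of their panels.

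In mean level the order was miR-16-5p, miR-195a-5p, miR-15b-5p, miR-497a-5p and miR-15a-5p, by counts of mature miRNAs of 21 or 22 bases. MiR-16-5p was above miR-195a-5p, miR-195a-5p above miR-15b-5p and miR-15b-5p above miR-497a-5p in 9 of 9 libraries. MiR-497a-5p was above miR-15a-5p in 7 libraries and below it in 2 (WT replicate 3 and Mbnl1KO replicate 2), with a mean log2 ratio of 0.31 and an SD of 0.31. The order was taken from these same counts, so it is a description with no test. The raw counts behind the values lay between 7726 and 13686 for miR-16-5p, between 751 and 1632 for miR-195a-5p, between 306 and 595 for miR-15b-5p, between 213 and 540 for miR-497a-5p and between 172 and 361 for miR-15a-5p. Counting alone gives a coefficient of variation of 0.855% to 1.14% for miR-16-5p and of 5.26% to 7.62% for miR-15a-5p. The replicates of WT varied by 5.77% and 24.2%, respectively, more than counting gives. MiR-15b-5p varied by 2.64% among the WT libraries, less than its counting error of 4.1% to 5.72%.

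In Mbnl1KO against WT, no member was differentially expressed at an adjusted p under 0.05, while 105 of the 317 tested miRNAs were (33.1%). Mean levels of miR-195a-5p were 1265 ± 47.9 in Mbnl1KO and 996 ± 69.2 in WT, and those of miR-497a-5p were 364 ± 31.8 and 285 ± 23.9 (SD, n = 3 each). The log2 fold change was 0.34 (SE 0.15, 95% interval 0.04 to 0.64) for miR-195a-5p, with an adjusted p of 0.072 by edgeR. For miR-497a-5p it was 0.35 (SE 0.17, interval 0.01 to 0.70), with an adjusted p of 0.108 by edgeR. In bulk muscle, a difference in RNA per cell and a difference in the share of cells of a type cannot be told apart.

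Groups did not overlap for these 2 of the 5 members, and for 44.8% of all tested miRNAs. The same 2 had an unadjusted p under 0.05 by edgeR, as had 42.3% of all tested miRNAs, so that both shares were near the background. DESeq2's Wald test also called 0 of the 5. MiR-15a-5p had a log2 fold change of 0.31 (SE 0.18, interval -0.05 to 0.68) and an adjusted p of 0.182 by edgeR. Leaving out WT replicate 3 took it to 0.52 with an adjusted p of 0.0462, the only member called without a library, where 29.9% of all tested miRNAs were called. With each library left out in turn, its fold change ranged from 0.16 to 0.52 and its adjusted p from 0.0462 to 0.566 by edgeR. MiR-15b-5p and miR-16-5p, which come wholly and in part from hairpins within Smc4, both had a log2 fold change of 0.07, with intervals of -0.26 to 0.41 and -0.21 to 0.36.

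The log2 fold change was above 0 for 5 of 5 members, against 49.2% of all tested miRNAs, and the median over the members was 0.31 against -0.01 over all. With 1 library left out, the members' median ranged from 0.16 (without Mbnl1KO replicate 2) to 0.33 (without Mbnl1KO replicate 3). The direction was above 0 for all 5 under each of the 15 alternatives too, of which the threshold of 0.01 cannot change a fold change. Members from the same hairpin pair are not independent, so no test is given for the number above 0. Differentially expressed miRNAs divided into 60 higher and 45 lower (57.1% higher), and scaling by library totals without TMM gave 90.1% higher and moved the median of all tested miRNAs from -0.01 to 0.30. Under that scaling miR-15a-5p, miR-195a-5p and miR-497a-5p passed the threshold, with log2 fold changes of 0.59, 0.64 and 0.67, where 31.8% of all tested miRNAs did.

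In Mbnl2KO against WT, no member was differentially expressed, in a comparison where 17 of 293 tested miRNAs were (5.8%). MiR-15b-5p had the largest fold change of the members, with mean levels of 467 ± 26.4 in Mbnl2KO and 383 ± 10.1 in WT (SD, n = 3 each). Its log2 fold change was 0.31 (SE 0.14, interval 0.02 to 0.59), with an adjusted p of 0.242 by edgeR. It was the 1 member with an unadjusted p under 0.05 by edgeR, against 18.1% of all tested miRNAs, and DESeq2 called 0 of the 5. Groups did not overlap for miR-15b-5p and miR-195a-5p, 2 of the 5, against 23.2% of all. MiR-195a-5p had a log2 fold change of 0.17 (interval -0.11 to 0.45) and miR-497a-5p one of 0.10 (interval -0.21 to 0.40). The values of miR-16-5p, 0.03 (interval -0.21 to 0.27), and of miR-15a-5p, -0.06 (interval -0.44 to 0.32), were the lowest, and both changed sign under some alternatives. Fold changes were above 0 for 4 of 5 members and for 52.6% of all tested miRNAs, with medians of 0.10 and 0.02.

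Both comparisons share the WT libraries, so Mbnl1KO was also compared with Mbnl2KO directly. No member was differentially expressed between them, against 83 of 309 tested miRNAs (26.9%), none had an unadjusted p under 0.05 by edgeR against 39.2% of all, and DESeq2 called 0 of the 5. The groups did not overlap for 4 of the 5 members (all but miR-16-5p), and for 47.9% of all tested miRNAs. MiR-15a-5p was at 301 ± 61.3 in Mbnl1KO and 229 ± 23.7 in Mbnl2KO, a log2 fold change of 0.39 (SE 0.19, interval -0.01 to 0.79) with an adjusted p of 0.132 by edgeR. With each library left out in turn, this fold change ranged from 0.18 to 0.48 and its adjusted p from 0.117 to 0.457 by edgeR. MiR-497a-5p had a log2 fold change of 0.28 (interval -0.07 to 0.62), miR-195a-5p of 0.19 (interval -0.08 to 0.47) and miR-16-5p of 0.07 (interval -0.19 to 0.32). MiR-15b-5p had the opposite sign, -0.21 (interval -0.54 to 0.11). Fold changes were above 0 for 4 of 5 members and for 52.8% of all tested miRNAs, with medians of 0.19 and 0.07.

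**Figure D2:**
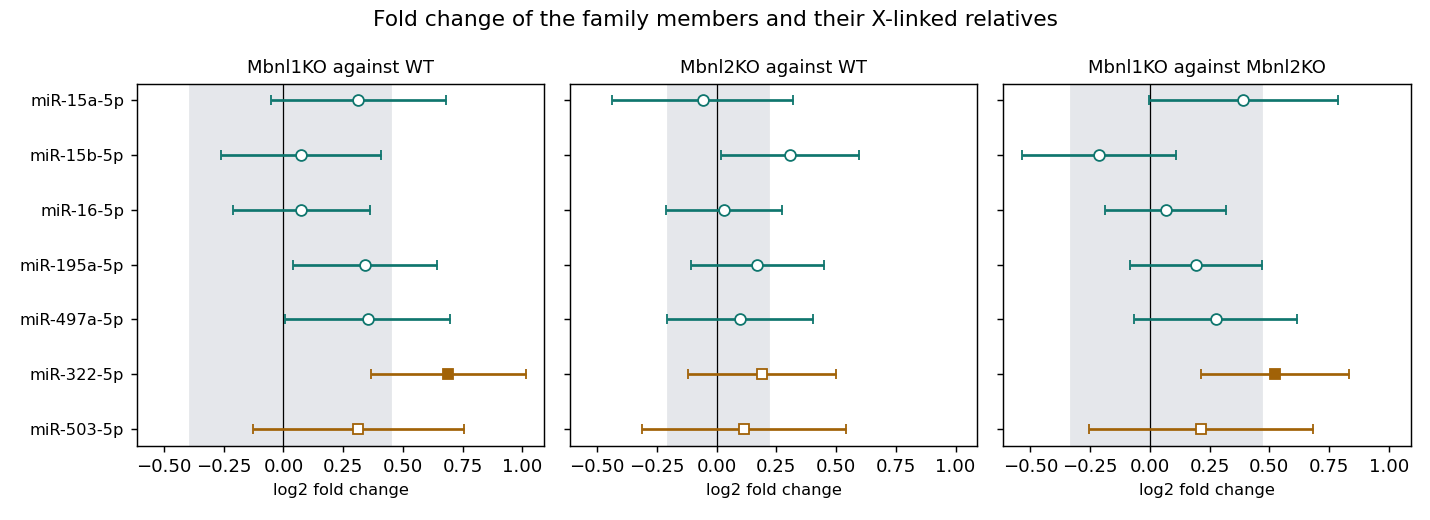
Log2 fold change (horizontal axes) with its 95% interval for the 5 members (circles) and 2 X-linked relatives (squares) in the 3 comparisons, where filled symbols had an adjusted p under 0.05 and the grey band spans the middle 50% of all tested miRNAs. All 5 members are open in each panel, and miR-322-5p is filled in both comparisons that involve Mbnl1KO, at 0.69 and 0.52.

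Ratios of members within a library do not depend on the scaling between libraries. For each comparison, 10 ratios were formed and tested by an exact two-sided permutation test, for which 3 against 3 libraries cannot go below p = 0.1. The raw counts of miR-16-5p were 10.6, 9.70 and 10.3 times those of miR-195a-5p in WT, 7.59, 8.81 and 8.86 times in Mbnl1KO, and 9.11, 9.03 and 9.51 times in Mbnl2KO. The ratio of these closest sequences was lower in each Mbnl1KO and each Mbnl2KO library than in any WT library. The log2 difference was -0.28 in Mbnl1KO and -0.14 in Mbnl2KO against WT (exact permutation p = 0.1 each, the smallest possible).

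The log2 ratio of the raw counts of miR-15b-5p to those of miR-497a-5p was 0.35, 0.42 and 0.52 in WT, 0.14, 0.15 and 0.15 in Mbnl1KO, and 0.72, 0.68 and 0.51 in Mbnl2KO. All Mbnl1KO libraries lay below WT, and the Mbnl2KO libraries lay above or within the upper part of the WT range. The log2 difference was -0.28 in Mbnl1KO against WT and -0.49 in Mbnl1KO against Mbnl2KO, without overlap (exact permutation p = 0.1 each).

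MiR-16-5p counts were 34.4, 36.3 and 36.3 times those of miR-497a-5p in WT, and 22.9, 32.5 and 33.5 times in Mbnl1KO, also without overlap. Its counts were 27.0, 27.2 and 25.2 times those of miR-15b-5p in WT, and 22.5, 19.9 and 23.1 times in Mbnl2KO, again without overlap. In Mbnl1KO this ratio spread from 20.8 in replicate 1 to 30.1 in replicate 3, on both sides of WT. For the chromosome 11 neighbours miR-195a-5p and miR-497a-5p, the ratio was 3.26, 3.74 and 3.53 in WT and 3.02, 3.69 and 3.78 in Mbnl1KO. Their log2 difference between these groups was -0.01, less than the spread between replicates (SD 0.18 in Mbnl1KO and 0.10 in WT). Groups did not overlap for 3 of the 10 ratios in Mbnl1KO against WT, 2 in Mbnl2KO against WT and 4 in Mbnl1KO against Mbnl2KO. Over the ratios of all pairs of tested miRNAs with a count in each library, the groups did not overlap for 45.1%, 23.3% and 43.4%, and the members' counts were not above these shares in any of the comparisons. Without WT replicate 3 the members' count was 6 in Mbnl1KO against WT and 4 in Mbnl2KO against WT, where 55.2% and 32.1% of all pairs did not overlap. It was 5 in the first comparison without Mbnl1KO replicate 1 (52.6% of all pairs), and 5 in the second without Mbnl2KO replicate 1 (32.1% of all pairs).

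**Figure D3:**
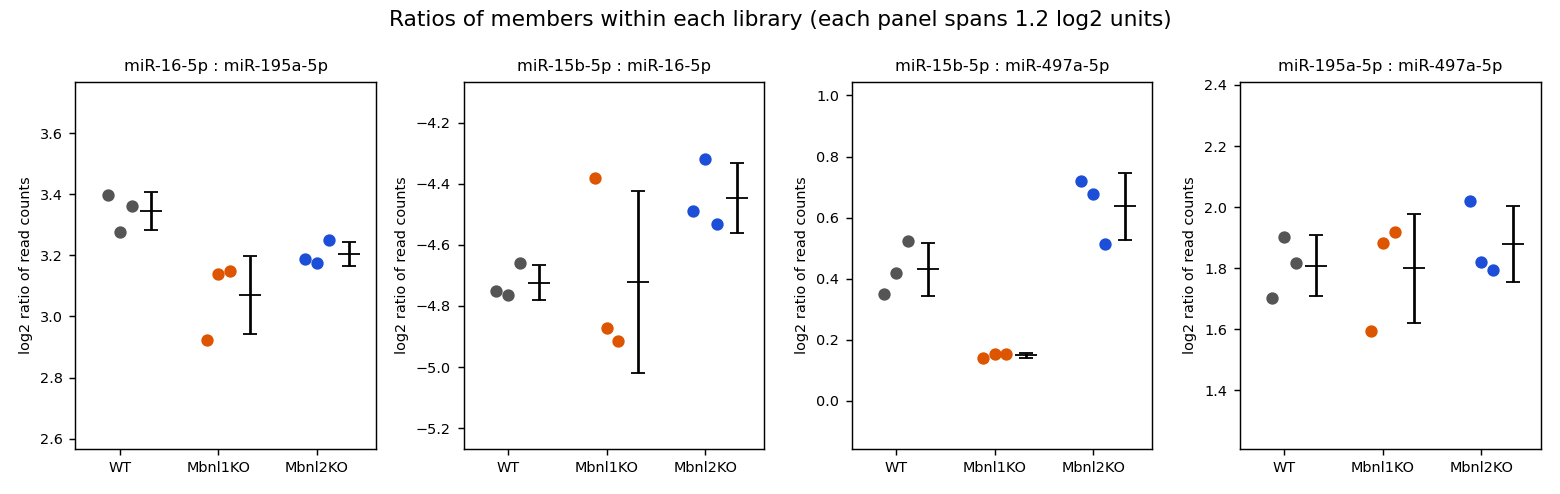
Log2 ratio of the raw counts of 2 members (vertical axes, 1.2 log2 units in each panel) for 4 of the 10 pairs in each library, with points in replicate order and the mean ± SD (n = 3) beside them. The 3 Mbnl1KO points of miR-15b-5p to miR-497a-5p lie between 0.14 and 0.15, below WT and Mbnl2KO, while the groups overlap for miR-195a-5p to miR-497a-5p.

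The family sum followed miR-16-5p. It was 12535, 12205 and 11351 normalized counts in WT, 11498, 13837 and 13701 in Mbnl1KO, and 12392, 12031 and 12408 in Mbnl2KO, and all groups overlapped. As a share of the library total the sum was 0.189%, 0.205% and 0.194% in WT, 0.263%, 0.255% and 0.261% in Mbnl1KO, and 0.210%, 0.217% and 0.179% in Mbnl2KO. The Mbnl1KO shares were the highest, beside a share of miR-1a-3p between 61.4% and 68.6%, lower than the 69.7% to 71.3% of WT, and the part of miR-1a-3p in that difference was not tested. In normalized counts, scaled over 9 libraries, the mean log2 difference of the sum was 0.11 in Mbnl1KO and 0.03 in Mbnl2KO against WT, and scaled over the 6 libraries of each comparison alone it was 0.11 and 0.05.

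The sum of the 4 members without miR-16-5p was 1911, 1937 and 1868 in WT, 2316, 2410 and 2276 in Mbnl1KO, and 2119, 2118 and 2065 in Mbnl2KO. Here the 3 groups did not overlap, in the order WT, Mbnl2KO and Mbnl1KO, with mean log2 differences from WT of 0.29 in Mbnl1KO and 0.14 in Mbnl2KO (0.29 and 0.16 when scaled over the 6 libraries of each comparison). MiR-195a-5p, which separated likewise, was the largest part of this sum. As a share of the library total, this sum was 0.0289%, 0.0326% and 0.0320% in WT and 0.0359%, 0.0381% and 0.0298% in Mbnl2KO. These shares overlapped, while those of Mbnl1KO (0.0530%, 0.0444% and 0.0434%) lay above both. No test is given for a sum over chosen members.

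The X-linked relatives come from Mir322 (chrX:52143132-52143226, minus strand) and Mir503 (chrX:52142861-52142931, minus strand) in the long non-coding RNA gene Mir503hg. MiR-322-5p, the only other miRNA with the family's seed and a count, had 430, 439 and 503 normalized counts in WT, 761, 759 and 696 in Mbnl1KO, and 571, 481 and 486 in Mbnl2KO. It rose in Mbnl1KO against WT, with no overlap, by a log2 fold change of 0.69 (SE 0.16) and an adjusted p of 0.000367 by edgeR, and was called under all 15 alternatives. Against Mbnl2KO it was higher by 0.52 (adjusted p = 0.0151 by edgeR), a call lost without Mbnl2KO replicate 2 (adjusted p = 0.0552) or replicate 3 (0.0921). MiR-503-5p had 93.7, 108 and 102 in WT, 151, 126 and 100 in Mbnl1KO, and 105, 130 and 88.4 in Mbnl2KO, with overlap in each comparison. Of the 4 X-linked 5p and 3p miRNAs, 1 was called higher in Mbnl1KO against WT, where 33.1% of all tested miRNAs were called. None was called in Mbnl2KO against WT (5.8% of all), where 1 (miR-503-3p) had an unadjusted p under 0.05 by edgeR (18.1% of all).

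The 3p partners were scarce. MiR-195a-3p had between 30 and 64 raw counts per library, and its log2 fold change was 0.14 (interval -0.45 to 0.74) in Mbnl1KO and 0.22 (interval -0.35 to 0.78) in Mbnl2KO against WT, and -0.06 (interval -0.58 to 0.45) in Mbnl1KO against Mbnl2KO. The others had at most 22 raw counts in any library (miR-16-1-3p in Mbnl2KO replicate 2), and miR-497a-3p was listed at 0. MiR-16-1-3p and miR-16-2-3p each belong to 1 of the 2 miR-16 loci. MiR-16-1-3p had 6 to 22 raw counts per library and 97 in all, and miR-16-2-3p had 0 to 9 and 37 in all. The former was above the latter in 8 of 9 libraries, which describes these arms only, since the counts of miR-16-5p cannot be divided between the loci. Normalized counts of miR-16-1-3p were 11.8, 5.82 and 8.59 in WT, 8.90, 9.27 and 9.18 in Mbnl1KO, and 9.92, 21.5 and 11.4 in Mbnl2KO. It passed the filter on low counts only in the comparisons with Mbnl2KO, the group where it was highest, so no fold change or test is given for it. MiR-15a-3p, miR-15b-3p and miR-16-2-3p did not pass it in any of the comparisons.

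Other miRNAs known to act on the cell cycle were taken as a list of 18, of which 14 were tested in each comparison. In Mbnl1KO against WT, 1 was called higher, which was miR-322-5p itself, and none lower, where 33.1% of all tested miRNAs were called, and the list's median log2 fold change was 0.00 (0.0018) against 0.31 for the family. In Mbnl2KO against WT none of the 14 was called by edgeR against 5.8% of all tested miRNAs, and 2 had an unadjusted p under 0.05 against 18.1% of all. Between Mbnl1KO and Mbnl2KO, where 26.9% of all were called, 4 of the 14 were. Of these, miR-322-5p and miR-34a-5p, a target of p53, were higher in Mbnl1KO (log2 fold changes of 0.52 and 0.60), and let-7b-5p and miR-26a-5p were lower (-0.42 and -0.40).

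In mean level, the 2 miRNAs next above miR-16-5p were miR-125b-5p and miR-10b-5p, and the 2 next below were miR-191-5p and miR-133a-5p. MiR-195a-5p lay between miR-1291 and miR-145a-3p above and miR-29c-3p and miR-196b-5p below. MiR-15b-5p had miR-204-5p and miR-214-3p above and miR-140-5p and miR-351-5p below it, and miR-497a-5p had miR-664-3p and miR-382-5p above and miR-532-5p and miR-1198-5p below it. Around miR-15a-5p these were miR-574-3p and miR-20a-5p above and miR-17-5p and miR-28a-3p below. Pearson's r of log2 normalized counts with 156 other abundant miRNAs over the 9 libraries is given as a description, since the libraries fall into groups and share their scaling. MiR-195a-5p was most like miR-494-3p (0.93), the muscle miRNA miR-206-3p (0.93) and miR-487b-3p (0.92). MiR-497a-5p was most like miR-27b-3p (0.90), miR-23b-3p (0.88) and miR-487b-3p (0.88). MiR-15a-5p was most like miR-29b-3p (0.94), miR-34a-5p (0.86) and miR-145a-5p (0.83). For miR-15b-5p these were miR-148a-3p (0.85), miR-10b-5p (0.77) and miR-10a-5p (0.77), and for miR-16-5p they were miR-30e-5p (0.84), miR-22-3p (0.81) and miR-185-5p (0.73). The family sum was most like miR-22-3p (0.88), miR-30e-5p (0.85) and miR-185-5p (0.85). Among the members, miR-195a-5p and miR-497a-5p were the most alike (0.76), while miR-15b-5p had values of -0.37 with both miR-15a-5p and miR-16-5p.

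Marker miRNAs of other cells moved with Mbnl1KO in part. Of all tested miRNAs, 33.1% were called in Mbnl1KO against WT, 5.8% in Mbnl2KO against WT and 26.9% in Mbnl1KO against Mbnl2KO. Of 5 tested white blood cell markers, miR-142a-5p, miR-223-3p and miR-146a-5p were lower in Mbnl1KO than in WT and miR-155-5p was higher, and their summed level was 2347 to 2519 in WT and 2243 to 2551 in Mbnl1KO. For red blood cells, in which miR-16-5p is abundant, the summed level was 419 to 601 in WT, against 436 to 821 in Mbnl1KO and 393 to 481 in Mbnl2KO, and 0 of 1 tested marker was called. Of 3 fibroblast markers, miR-199a-3p was lower in Mbnl1KO (summed level of 5954 to 6905 against 7186 to 8092 in WT). Both smooth muscle markers were tested and not called in Mbnl1KO (26126 to 41398 against 28150 to 32234 in WT), and miR-143-3p was higher in Mbnl2KO (36357 to 41233). Both endothelial markers were listed at 0. Of 5 tested muscle markers, miR-133b-3p and miR-206-3p were higher in Mbnl1KO than in WT (log2 fold changes of 0.71 and 1.93). The other 3 were not called, among them miR-1a-3p at -0.40 (adjusted p = 0.0502 by edgeR), whose groups did not overlap. MiR-206-3p was also higher in Mbnl2KO than in WT, by 0.89 (adjusted p = 0.000757 by edgeR), without overlap. The list's sum, which is nearly all miR-1a-3p, was 3144400 to 4118500 in Mbnl1KO and 4519500 to 5155500 in WT. In Mbnl1KO against Mbnl2KO, miR-133b-3p, miR-206-3p and miR-155-5p were called higher and miR-142a-5p, miR-223-3p, miR-146a-5p and miR-199a-3p lower. The part of these cell types in the values of the members was not tested.

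**Figure D4:**
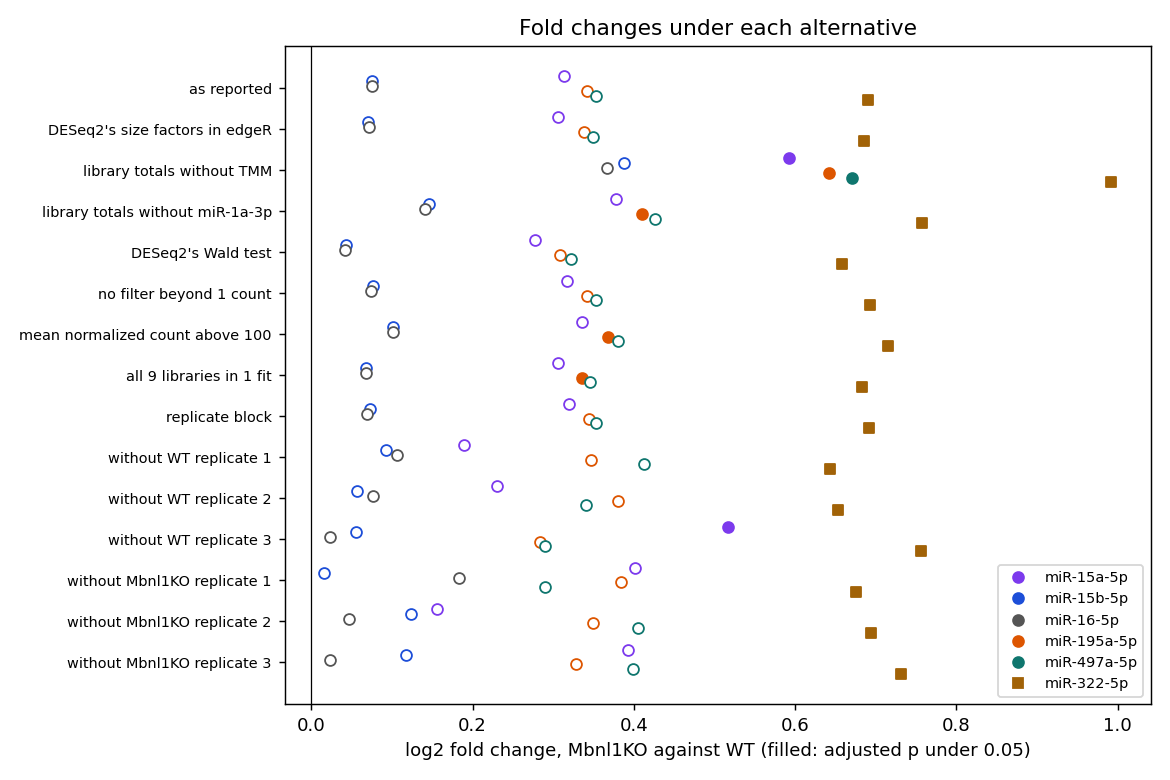
Log2 fold change in Mbnl1KO against WT (horizontal axis) of the 5 members (circles) and miR-322-5p (squares) as reported and under 14 other ways of scaling, filtering, fitting or leaving out a library (rows), filled where the adjusted p was under 0.05. MiR-322-5p is filled throughout, miR-195a-5p in 4 rows, miR-15a-5p in 2 and miR-497a-5p in 1, and miR-15b-5p and miR-16-5p in none.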

How the data were processed

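The authors deposited raw counts of reads per mature miRNA, without normalization. According to the study's methods, reads were clipped, collapsed and matched to miRBase precursors without mismatch. Whether the deposited table came from that counting is not given in the sources used here. The study lists miR-24-3p among the miRNAs changed in both knockouts, while the deposited table lists it at 0. For this miRNA, the deposited counts and those behind the study's results therefore differ. Libraries were assigned to groups by their labels, which name no animals, so p-values measure the spread between these libraries.

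From the counts, each pair of groups (6 libraries) was fitted with edgeR 4.0.16 (limma 3.58.1, R 4.3.3) by the robust quasi-likelihood test, with TMM scaling and Benjamini-Hochberg adjustment over all miRNAs whose normalized counts averaged more than 10. Differential expression was called at an adjusted p under 0.05. Levels were scaled over all 9 libraries and fold changes over the 6 of their comparison, so that both can differ slightly. DESeq2 1.42.0 was an alternative. Figures were drawn with Python 3.11.15 and matplotlib 3.10.9. The test was checked on simulated counts with changes larger than those of the members, so the check does not cover changes of their size. Precision is limited by 4761271 to 6277018 counts per library and by 3 libraries per group. Over all miRNAs, replicates of a group differed by more than sampling noise, although miR-15b-5p in WT did not. Named were all 5 members, the listed miRNAs that passed the test, the 3p partners, the 3 most alike and the 2 miRNAs next above and next below each member in level. MiR-503-5p and miR-503-3p were named as relatives without passing the test, and miR-1a-3p as the most abundant miRNA and a muscle marker. MiRNAs listed at 0 were named as facts on the libraries. The members and lists were chosen with earlier results of these data known.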

Additional observations from a re-analysis of the deposited data

Results flagged for a closer look

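Mbnl1KO and Mbnl2KO differed from each other in miR-322-5p, the X-linked relative with the family's seed, by a log2 fold change of 0.52 (adjusted p = 0.0151 by edgeR's direct comparison), with values of 761, 759 and 696 normalized counts in Mbnl1KO and of 571, 481 and 486 in Mbnl2KO. For 2 ratios of members, every Mbnl1KO library lay below the WT mean and every Mbnl2KO library above it. These were miR-15b-5p to miR-195a-5p, with a mean log2 ratio lower by 0.41 in Mbnl1KO than in Mbnl2KO (a difference of -0.41), and miR-15b-5p to miR-497a-5p, with a difference of -0.49. This position held, in either direction, for 8.42% of the 41328 pairs of miRNAs tested in all 3 comparisons with a count in each library, and for 2 of the members' 10 pairs. Pairs share miRNAs, and the difference was not tested.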

How the results depend on the processing

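Under 15 alternatives set for each comparison, fold changes of the members in Mbnl1KO against WT kept their sign. Among these, the threshold of 0.01 cannot change a fold change. Library totals without TMM called 3 members there (31.8% of all tested miRNAs) and 1 in Mbnl1KO against Mbnl2KO (24.8% of all). In the former, library totals without miR-1a-3p called 1 (29.3% of all), a mean normalized count above 100 called 1 (40.7%, 68 of 167) and all 9 libraries in 1 fit called 1 (33.9%). The family sum, as a log2 ratio of group means scaled over the 6 libraries of a comparison, moved with library totals to 0.40 in Mbnl1KO against WT and to 0.36 against Mbnl2KO, and without miR-16-5p to 0.29 (Mbnl1KO) and 0.16 (Mbnl2KO) against WT. In Mbnl2KO against WT, 7 miRNAs were called with library totals, 9 above a mean of 100 and 6 at a threshold of 0.01, which called 45 between Mbnl1KO and Mbnl2KO. MiR-16-5p was at -0.0032 in Mbnl2KO against WT with all 9 libraries in 1 fit, and miR-15b-5p at 0.082 in Mbnl1KO against Mbnl2KO with library totals. With each library left out in turn, 0 to 1 members were called in Mbnl1KO against WT and 6 to 25 miRNAs in Mbnl2KO against WT, and 3 to 6 and 2 to 5 ratios did not overlap in these comparisons, against 51.8% to 55.2% and 32.0% to 35.5% of all pairs of tested miRNAs. In the latter, miR-15a-5p ranged from -0.21 to 0.17 and miR-16-5p from -0.039 to 0.096, and in Mbnl1KO against Mbnl2KO miR-16-5p ranged from -0.020 to 0.17. The causes of these shifts were not tested. Libraries with the same replicate number did not deviate together (correlations of -0.15 to 0.12), and with the replicate number as a block 0 members and 92, 21 and 80 miRNAs were called. With 3 libraries per group, the SE of a member's log2 fold change was 0.12 to 0.19.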
